A study of Mus musculus with 6 samples.

Results

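Macrophage transcripts in cultures of mouse embryonic fibroblasts (MEF) were read from 10 genes, *Lyz2*, *Adgre1*, *Cd68*, *Csf1r*, *Laptm5*, *Tyrobp*, *Fcer1g*, *Ctss*, *Cd14* and *Aif1*, chosen by their symbols among the 16982 genes of the count table. All 10 were present in the table and 9 passed the filter on low counts. *Aif1* did not pass it and is described by its counts. The RNA-seq compared 3 WT and 3 *Rnf20* knockout cultures on day 3 after the start of reprogramming, for which OCT4, SOX2, C-MYC and KLF4 were delivered by retrovirus. Both groups are labelled as C57BL/6 reprogrammable cells without treatment, the first with the wild-type genotype and the second as Rnf20-/-. The methods of the study state that knockout MEF carried floxed *Rnf20* and a ubiquitous tamoxifen-inducible Cre (*Tamoxifen-cre*), that recombination was induced with 4-OH tamoxifen, without saying whether WT cells received the drug, and that infected MEF were moved onto mitomycin-C-treated MEF feeder layers. They name no sort for a cell type, and neither they nor the labels say whether the replicates came from separate embryos or whether feeder cells entered the RNA. P-values therefore measure only the spread between these samples. In bulk RNA, fewer macrophages and less RNA per macrophage cannot be told apart.

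Macrophages are phagocytes of the immune system. Embryonic tissue holds them from early stages, so that primary fibroblast cultures can carry some. Their growth and survival depend on the receptor CSF1R, whose ligands CSF1 and IL34 are made by stromal cells such as fibroblasts, and their identity depends on the transcription factor PU.1, the product of *Spi1*. Bacterial products and interferon shift macrophages towards classical activation, with nitric oxide synthase (*Nos2*), *Acod1* and inflammatory cytokines, whereas alternative activation is marked by scavenger and lectin receptors such as *Mrc1*.

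Among the members, *Lyz2* encodes lysozyme M, a secreted bacteriolytic enzyme, and *Ctss* encodes cathepsin S, a lysosomal protease of antigen presentation. *Cd68* and *Laptm5* encode membrane proteins of lysosomes and endosomes. *Adgre1* (the F4/80 antigen), *Csf1r* and *Cd14*, a co-receptor for lipopolysaccharide, encode surface receptors. *Tyrobp* (DAP12) and *Fcer1g* (the Fc receptor gamma chain) encode adaptors that carry an ITAM, a tyrosine motif which recruits the kinase SYK. *Aif1* (IBA1) encodes an actin-binding protein of macrophages. In the GENCODE M21 annotation of GRCm38 all 10 are protein-coding. *Lyz2* lies at chr10:117277331-117282321 and *Fcer1g* at chr1:171229572-171234365, both on the minus strand, *Adgre1* at chr17:57358691-57483527, *Laptm5* at chr4:130913125-130936141, *Tyrobp* at chr7:30413760-30417585 and *Ctss* at chr3:95526786-95556403, on the plus strand, and *Cd68* at chr11:69664213-69666153 and *Aif1* at chr17:35170991-35176068, on the minus strand. Exons of *Hmgxb3* on the opposite strand overlap 873 bases of the exons of *Csf1r*, and the use of strand in counting the stranded libraries is not stated, so reads of that pair may be mixed. *Lyz2* has a close paralog, *Lyz1*, with which it could share reads.

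Of the members, 6 had a promoter window in RefSeq (GRCm38.p6). The windows of 4 are shown, as examples of members that varied between the knockout libraries in different ways. *Lyz2* and *Fcer1g* stood far higher in one knockout library than in the other two, and *Ctss* and *Cd68* did not. Bases that GENCODE counts to the gene are left out. Capitals mark GAGGAA, the core that PU.1 prefers.
*Lyz2* (chr10:117282322-117282522, minus strand, 201 bases): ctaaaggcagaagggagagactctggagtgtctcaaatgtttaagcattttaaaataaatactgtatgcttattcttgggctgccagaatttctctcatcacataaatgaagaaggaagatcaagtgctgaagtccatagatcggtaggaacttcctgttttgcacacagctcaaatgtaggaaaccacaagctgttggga
*Fcer1g* (chr1:171234366-171234599, minus strand, 234 bases): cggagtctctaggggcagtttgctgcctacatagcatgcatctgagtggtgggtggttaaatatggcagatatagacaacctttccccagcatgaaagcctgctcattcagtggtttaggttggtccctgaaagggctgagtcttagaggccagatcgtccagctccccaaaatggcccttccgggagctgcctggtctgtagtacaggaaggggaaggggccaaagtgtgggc
*Ctss* (chr3:95526536-95526785, plus strand, 250 bases): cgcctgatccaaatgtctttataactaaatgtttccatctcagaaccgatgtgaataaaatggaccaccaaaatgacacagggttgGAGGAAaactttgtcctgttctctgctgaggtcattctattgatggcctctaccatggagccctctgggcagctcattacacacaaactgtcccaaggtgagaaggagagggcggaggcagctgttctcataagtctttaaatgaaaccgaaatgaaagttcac
*Cd68* (chr11:69666171-69666420, minus strand, 250 bases): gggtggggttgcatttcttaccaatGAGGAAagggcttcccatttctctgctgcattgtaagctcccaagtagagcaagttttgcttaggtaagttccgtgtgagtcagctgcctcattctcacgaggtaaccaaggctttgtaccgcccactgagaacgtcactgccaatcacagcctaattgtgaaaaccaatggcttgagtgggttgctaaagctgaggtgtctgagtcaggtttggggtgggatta

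Both strands of the 250 bases before the RefSeq start were searched. This search kept the bases that GENCODE counts to the gene. GAGGAA was found in 4 of the 6 windows (*Cd68*, *Laptm5*, *Ctss* and *Aif1*) and in 23.3% of 32851 windows of all genes. The matches of *Laptm5* and *Aif1* began 38 and 7 bases before the RefSeq start, among bases that GENCODE counts to the gene. The 4 windows printed were chosen by the levels of their genes in the knockout libraries. *Aif1*, whose window is not printed, holds GAGGAA and had 32 counts in knockout replicate 3 and at most 6 in any other library. A link between the motif and the levels was not tested. The longer form GAGGAAGT was in 0 of the 6 and in 2.44% of all windows. The AP-1 motif TGANTCA occurred in the window of *Cd68* alone among the 6, at 2 places, against 6.75% of all windows. The C/EBP motif TTNCNNAA was found in *Lyz2* and *Cd68* (36.8% of all windows), TATAAA in *Laptm5* and *Ctss* (12.4%), the TFEB E-box TCACGTGA in 0 of the 6 (0.785%) and the ETS core GGAA, which lies inside GAGGAA, in all 6 (93.4%). These are matches of letters in a window and not binding sites.

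The libraries held 20545442 to 21746898 counts. Levels are given as CPM with TMM library sizes, on which 3 counts, the limit that a count of 0 allows, equal 0.142 to 0.143 CPM. Such limits cover counting error only. *Rnf20*, the targeted gene, had 106 to 107 CPM in WT and 16.4 to 18.7 CPM in knockout libraries. Knockout replicate 3 stood apart from the other libraries. A chi-square statistic of the counts, near 1 per gene for sampling noise alone, was 92.4 and 101 between knockout replicate 3 and knockout replicates 1 and 2, whereas pairs of WT libraries gave 6.04 to 8.91 and the pair of knockout replicates 1 and 2 gave 8.57. No count of the Y-linked *Ddx3y* was seen in knockout replicate 1 or 3, against 94.4 to 128 CPM elsewhere. It was thus read in every WT library but in knockout replicate 2 alone of the knockout libraries, and was not balanced between the genotypes. Because knockout replicate 3 stood apart, the tests of the macrophage genes are given with and without it.

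Of the 9 macrophage genes tested, 0 were called lower and 0 higher in knockout cells (edgeR quasi-likelihood test, Benjamini-Hochberg adjusted p below 0.05 over 13386 genes). Of all genes tested, 16.6% were lower and 16.4% were higher in knockout cells by the same rule. DESeq2's Wald test and edgeR's exact test each called 0 members, where 38.1% and 33.2% of all genes were called in either direction. At an unadjusted p under 0.05 there was 1 member in the main fit, *Laptm5*, and 2 members by each of these tests. The share of all genes at that unadjusted p was not counted, so these member counts cannot be set against it. By the thresholds of the study (adjusted p under 0.01, absolute log2 fold change over 1 and FPKM over 1) 0 members were called, against 3.59% of all genes. The libraries of the genotypes overlapped for 8 of the 9 tested members, while 54.8% of all genes tested had libraries that did not overlap. The median log2 fold change was 0.29 for the 9 members and -0.00032 for all genes. Without knockout replicate 3 the median of the members was -0.32.

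**Figure D1:**
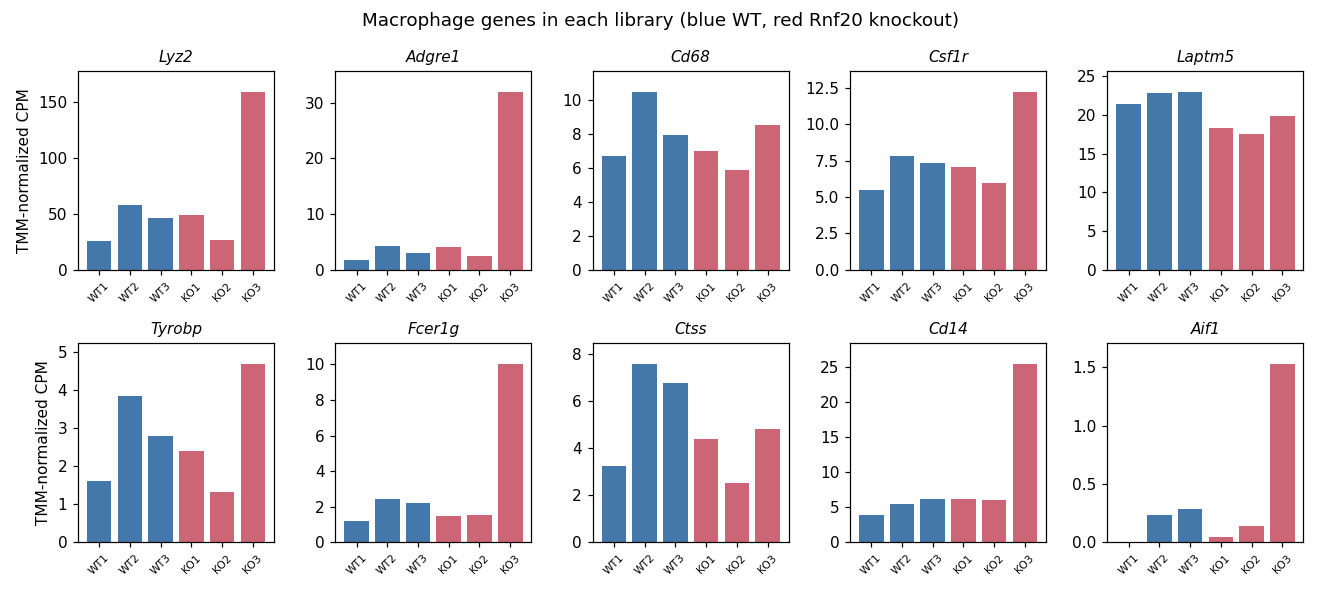
TMM-normalized CPM (vertical axis, starting at 0, with its own scale in each panel) of the 10 macrophage genes in WT (blue) and *Rnf20* knockout (red) libraries, one bar per library. Knockout replicate 3 is the highest bar for *Lyz2*, *Adgre1*, *Csf1r*, *Tyrobp*, *Fcer1g*, *Cd14* and *Aif1*, and WT replicate 1 is the lowest WT bar for each of the 10 genes.

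Of the surface receptors, *Adgre1* varied most. It had 1.76, 4.27 and 3.13 CPM in the WT and 4.06, 2.56 and 31.9 CPM in the knockout libraries, each in the order of replicates 1 to 3, as below. Knockout replicates 1 and 2 lay inside the WT range, and knockout replicate 3 was 7.47 times the highest WT library. Its log2 fold change, knockout against WT, was 2.07 (SE 0.967, adjusted p = 0.142 from edgeR), and 0.12 without knockout replicate 3 (SE 0.356, adjusted p = 0.810).

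*Cd14* had 3.95, 5.51 and 6.17 CPM in the WT libraries and 6.11, 5.98 and 25.4 CPM in the knockout libraries. Again knockout replicates 1 and 2 were within the WT range and knockout replicate 3 was above it, at 4.12 times the highest WT library. The log2 fold change was 1.26 (SE 0.596, adjusted p = 0.146 from edgeR), and 0.22 without knockout replicate 3 (SE 0.208, adjusted p = 0.416). *Csf1r*, the receptor on which macrophages depend, moved less, with 5.47, 7.83 and 7.31 CPM in WT and 7.06, 5.94 and 12.2 CPM in knockout libraries. Its highest library was also knockout replicate 3, at 1.56 times the highest WT library. The log2 fold change was 0.29 (SE 0.298, adjusted p = 0.477 from edgeR) and -0.078 without that library (SE 0.190, adjusted p = 0.761).

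The ITAM adaptors had lower counts. *Fcer1g* had 1.19, 2.42 and 2.23 CPM in WT and 1.48, 1.52 and 10.002 CPM in knockout libraries. Knockout replicate 3 lay 4.13 times above the highest WT library, and the other knockout libraries lay inside the WT range. Its log2 fold change was 1.15 (SE 0.798, adjusted p = 0.296 from edgeR), and -0.37 without knockout replicate 3 (SE 0.360, adjusted p = 0.419). *Tyrobp*, which pairs with receptors of the TREM and SIRP families, had 1.62, 3.84 and 2.80 CPM in WT and 2.39, 1.33 and 4.67 CPM in knockout libraries. Its libraries overlapped, and knockout replicate 3 was only 1.21 times the highest WT library. The log2 fold change of *Tyrobp* was 0.021 (SE 0.514, adjusted p = 0.976 from edgeR), -0.037 with library sizes in place of TMM factors, and -0.56 without knockout replicate 3 (SE 0.398, adjusted p = 0.269).

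*Lyz2*, the most abundant member, had 25.5, 58.0 and 46.6 CPM in WT and 49.1, 26.4 and 158.6 CPM in knockout libraries. Knockout replicate 2 was near WT replicate 1, the lowest, and knockout replicate 3 was 2.73 times the highest WT library. Its log2 fold change was 0.85 (SE 0.648, adjusted p = 0.343 from edgeR) and -0.20 without knockout replicate 3 (SE 0.307, adjusted p = 0.620). *Aif1* was scarce in 5 libraries, with 0, 5 and 6 counts in WT and 1 and 3 counts in the first 2 knockout libraries. It had 32 counts, or 1.52 CPM, in knockout replicate 3.

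The members of lysosomes and endosomes did not share the high value of knockout replicate 3. *Laptm5* was the steadiest member, with 21.3, 22.8 and 22.9 CPM in WT and 18.2, 17.6 and 19.9 CPM in knockout libraries. It was the one member whose libraries did not overlap, each knockout library lying below each WT library. Its log2 fold change was -0.27 (SE 0.0907, adjusted p = 0.0607 from edgeR). Without knockout replicate 3 the log2 fold change was -0.32 (SE 0.0882, adjusted p = 0.0132), so that *Laptm5* was the 1 member called lower, in a fit where 24.2% of all genes were called lower and 23.9% higher. With library sizes in place of TMM factors it was also called, at a log2 fold change of -0.33 (adjusted p = 0.0346), where 20.1% of all genes were called lower and 13.1% higher.

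*Cd68* had 6.70, 10.5 and 7.97 CPM in WT and 7.02, 5.89 and 8.57 CPM in knockout libraries. The groups overlapped, with a log2 fold change of -0.23 (SE 0.222, adjusted p = 0.450 from edgeR) and -0.38 without knockout replicate 3 (SE 0.202, adjusted p = 0.149). *Ctss* had 3.23, 7.55 and 6.74 CPM in WT and 4.39, 2.52 and 4.81 CPM in knockout libraries. Knockout replicate 2 lay below all WT libraries and the other knockout libraries lay inside the WT range. The log2 fold change was -0.58 (SE 0.382, adjusted p = 0.275 from edgeR) and -0.76 without knockout replicate 3 (SE 0.358, adjusted p = 0.107).

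**Figure D2:**
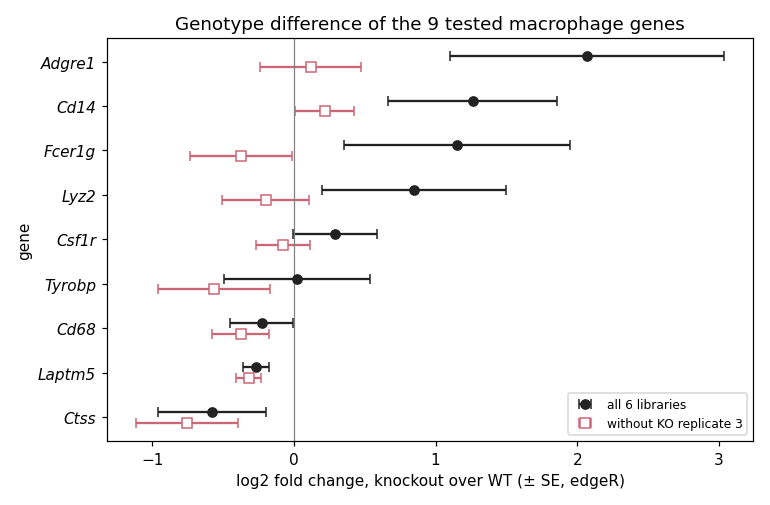
Log2 fold change, knockout against WT (horizontal axis, with bars of ± 1 SE from edgeR's quasi-likelihood fit) for the 9 tested macrophage genes (vertical axis), from all 6 libraries (black circles) and without knockout replicate 3 (open red squares). *Adgre1* goes from 2.07 to 0.12 when that library is left out, and *Ctss* and *Laptm5* stay below 0 in both fits.

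The spread inside each genotype was read as ratios of CPM between libraries. In WT replicate 1 each of the 10 members was lower than in WT replicates 2 and 3. Among all genes tested, 32.3% were lowest in WT replicate 1 of the WT libraries. The ratio of WT replicate 1 to the mean of the other WT libraries was 0.45 to 0.51 for *Ctss*, *Adgre1*, *Lyz2*, *Tyrobp* and *Fcer1g*. It was 0.68 to 0.73 for *Cd14*, *Csf1r* and *Cd68* and 0.93 for *Laptm5*. Between knockout replicates 2 and 1 the ratio was 0.54 to 0.63 for *Lyz2*, *Tyrobp*, *Ctss* and *Adgre1*, and 0.84 to 1.03 for the other 5 tested members. *Laptm5*, *Cd14* and *Fcer1g* were close to equal in these libraries.

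In knockout replicate 3 the order was another one. The ratio to the mean of knockout replicates 1 and 2 was 9.64 for *Adgre1*, 6.67 for *Fcer1g*, 4.20 for *Cd14*, 4.20 for *Lyz2*, 2.51 for *Tyrobp*, 1.88 for *Csf1r*, 1.39 for *Ctss*, 1.33 for *Cd68* and 1.11 for *Laptm5*. *Tyrobp* and *Ctss*, which went with *Lyz2* and *Adgre1* in WT replicate 1 and knockout replicate 2, parted from them here. Of the 9 tested members 5 were over 2 times the mean of knockout replicates 1 and 2, and of all genes tested 4.74% were.

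**Figure D3:**
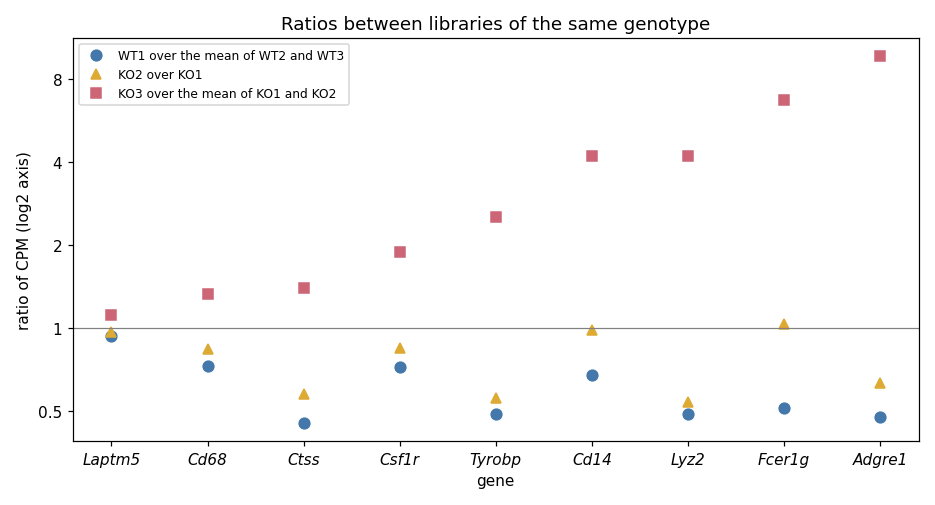
Ratio of CPM between libraries of one genotype (vertical axis, log2 scale) for the 9 tested macrophage genes, ordered by the ratio of knockout replicate 3 to the mean of knockout replicates 1 and 2 (red squares). Blue circles give WT replicate 1 over the mean of WT replicates 2 and 3, between 0.45 and 0.93, and yellow triangles give knockout replicate 2 over knockout replicate 1.

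The make-up of the trace followed from these ratios. The 10 members together had 70.8, 122.9 and 106.2 CPM in WT and 99.9, 69.8 and 277.5 CPM in knockout libraries. They took 0.0068% to 0.027% of all counts, beside 7067 to 13076 CPM of the single fibroblast gene *Col1a1*. *Adgre1* made up 2.48% to 4.06% of the member sum in the other 5 libraries and 11.5% in knockout replicate 3. *Lyz2* made up 36.1% to 49.1% in the other 5 libraries and 57.1% in knockout replicate 3. *Laptm5* made up 18.3% to 30.2% in those 5 libraries and 7.16% in knockout replicate 3, *Ctss* 3.60% to 6.34% and 1.73%, and *Cd68* 7.03% to 9.47% and 3.09%. The macrophage genes thus had other proportions to each other in knockout replicate 3 than in the other 5 libraries. Which cells the RNA of each member came from was not tested.

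Levels were compared between members per length, as CPM per kilobase of the gene length in the count table. *Lyz2* was first, with a mean of 46.1 over the 6 libraries and a lowest library (19.4) above the highest library of *Laptm5* (8.82), which was second with a mean of 7.87. *Cd14* (5.63), *Cd68* (4.77), *Tyrobp* (4.65), *Fcer1g* (4.597), *Ctss* (3.60), *Adgre1* (2.45), *Csf1r* (1.56) and *Aif1* (0.37) followed, and in each pair of neighbours from *Laptm5* down the ranges over the libraries overlapped. Without knockout replicate 3, an order computed after the data were seen, the means were 31.3 for *Lyz2*, 7.91 for *Laptm5*, 4.67 for *Cd68*, 4.01 for *Tyrobp*, 3.61 for *Ctss*, 3.53 for *Cd14*, 2.59 for *Fcer1g*, 1.38 for *Csf1r*, 0.973 for *Adgre1* and 0.14 for *Aif1*. *Cd14* thus went from above to below *Cd68*, *Tyrobp* and *Ctss*, and *Adgre1* from above to below *Csf1r*. Ranges of neighbours in that order did not overlap between *Lyz2* and *Laptm5*, *Laptm5* and *Cd68*, *Fcer1g* and *Csf1r*, or *Adgre1* and *Aif1*. By the deposited FPKM, 5 of the 9 members listed there kept their rank, *Lyz2* and *Laptm5* among them.

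The label was checked against genes that define leukocytes and myeloid cells. *Ptprc*, the leukocyte antigen CD45, had 1.14, 3.09 and 2.37 CPM in WT and 1.81, 1.28 and 4.91 CPM in knockout libraries. *Spi1* had 0.95, 1.71 and 2.14 CPM in WT and 2.67, 1.38 and 6.10 CPM in knockout libraries. The integrin subunit genes *Itgam* and *Itgb2* had 1.04 to 1.95 and 1.33 to 1.90 CPM in WT, and 6.33 and 7.95 CPM in knockout replicate 3. All 4 were detected in every library, above the floor and at low levels.

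A wider list of 69 myeloid genes without the members was drawn up from textbook knowledge in 3 groups, with earlier results of these data known. Of the 69 genes 65 were in the table and 59 were tested. By the edgeR test 1 of the 59 was lower and 2 were higher in knockout cells, beside 16.6% and 16.4% of all genes. Without knockout replicate 3, 2 of 60 were lower (*Cebpa* and *Coro1a*) and 3 higher (*Plcg2*, *Tlr4* and *Cebpb*), beside 24.2% and 23.9% of all genes. The gene that fell was *Cebpa*, which encodes a transcription factor of myeloid cells and of fat cell precursors, with 21.3 to 25.5 CPM in WT and 8.73, 7.36 and 4.19 CPM in knockout libraries (log2 fold change -1.80, SE 0.256, adjusted p = 0.00561). The genes that rose were *Plcg2*, a phospholipase downstream of ITAM receptors (log2 fold change 1.23, SE 0.167, adjusted p = 0.00505), and *Tlr4*, the lipopolysaccharide receptor, which fibroblasts also express (log2 fold change 1.15, SE 0.230, adjusted p = 0.0130). In the fit of the other 5 libraries *Cebpa*, *Plcg2* and *Tlr4* had log2 fold changes of -1.55, 1.11 and 0.89, and *Tlr4* was not called when WT replicate 2 or WT replicate 3 was left out. The median log2 fold change of the list was 0.57, and -0.12 without knockout replicate 3.

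The spread of the wider list between libraries was counted in the same way as that of the members. WT replicate 1 was the lowest WT library for 46 of the 59 genes (78.0%, against 32.3% of all genes). Knockout replicate 2 was below knockout replicate 1 for 49 (83.1%, against 50.4%). Knockout replicate 3 was the highest of the 6 libraries for 47 (79.7%, against 33.1%) and over 2 times the mean of knockout replicates 1 and 2 for 39 (66.1%, against 4.74%). By group, 13 of 18 leukocyte and myeloid core genes, 17 of 27 macrophage receptor and complement genes and 9 of 14 ITAM and phagocyte signalling genes were over 2 times in that library.

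Not every macrophage gene was high in knockout replicate 3. The complement genes *C1qa*, *C1qb* and *C1qc*, which resident macrophages express, had 3.71, 8.91 and 6.81 CPM there, inside or below their WT ranges of 4.09 to 8.26, 5.28 to 12.7 and 4.85 to 10.3 CPM. *Mrc1*, the mannose receptor, had 5.80, 17.8 and 13.8 CPM in WT, 11.3 and 7.93 CPM in knockout replicates 1 and 2 and 1.91 CPM in knockout replicate 3, its lowest library. *Mertk*, a receptor for the uptake of dying cells, was also lowest there, at 4.62 CPM. It had 14.5, 11.5 and 11.1 CPM in WT and 9.55 and 9.88 CPM in knockout replicates 1 and 2. Unlike the members, *Mertk* was thus highest in WT replicate 1, and which cells its RNA came from was not tested. These genes, and those of the next 3 sentences, were chosen after their values were seen. The scavenger receptor gene *Marco* had 778 counts (37.1 CPM) in knockout replicate 3 and 0 counts in each of the other 5 libraries. The small GTPase gene *Rac2* of leukocytes had 18.2 CPM there and 1.23 to 2.33 CPM elsewhere. *Cd36* had 28.7 against 2.28 to 5.44 CPM, and *Tlr2* 50.9 against 7.88 to 10.9 CPM.

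**Figure D4:**
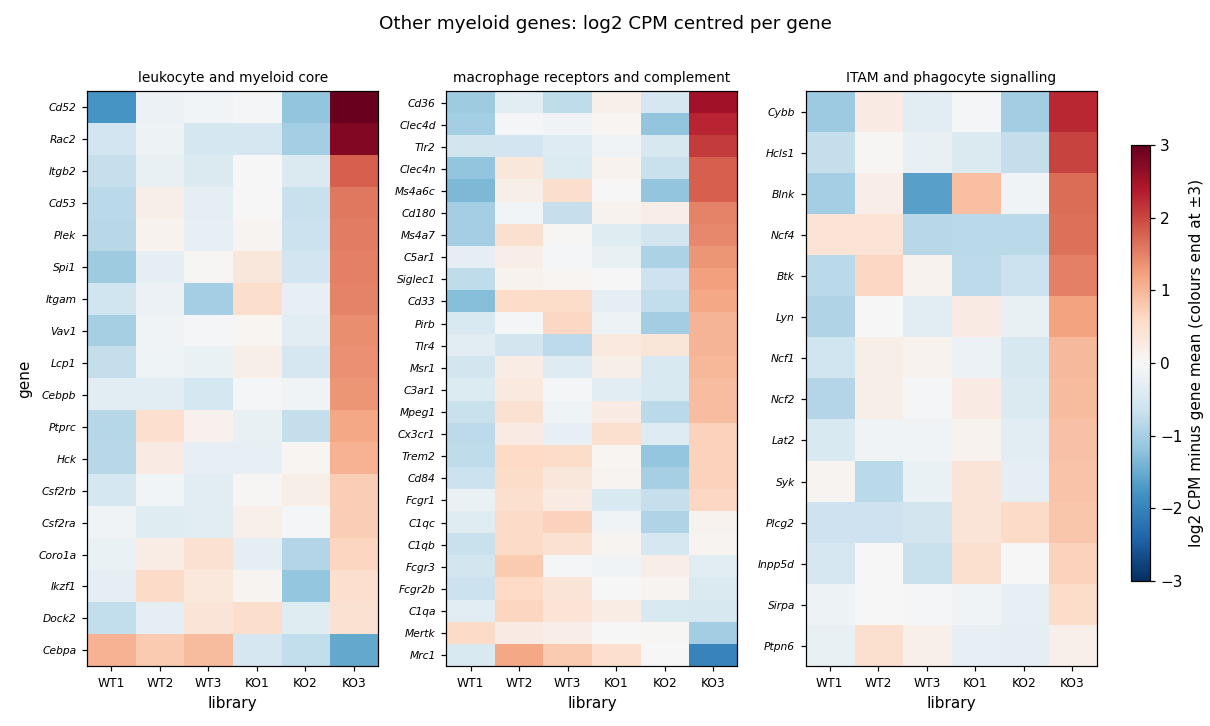
Log2 CPM minus the mean of each gene over the 6 libraries (colour, ending at 3 on both sides) for 58 of the 59 tested genes of the wider myeloid list (rows, in 3 groups) in the 6 libraries (columns). The column of knockout replicate 3 is the reddest for 47 of the 58 genes, and *Mrc1*, *Mertk* and *Cebpa* are blue in it.

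Of 17 genes of classical activation 8 were tested, with 0 lower and 3 higher in knockout cells, beside 16.6% and 16.4% of all genes. Knockout replicate 3 was the highest library for 7 of the 8, beside 33.1% of all genes. The 3 were *Ptgs2*, the inducible cyclooxygenase (log2 fold change 2.99, SE 0.316, adjusted p = 0.00321 from edgeR), the co-stimulatory gene *Cd80* (1.94, SE 0.103, adjusted p = 0.00139) and *Il6* (5.12, SE 1.44, adjusted p = 0.0358). *Ptgs2* and *Il6* are also made by fibroblasts, and which cells made *Cd80* was not tested. Unlike the members, *Ptgs2* and *Cd80* were highest among the WT libraries in WT replicate 1. *Ptgs2* had 16.3 to 25.2 CPM in WT and 133, 115 and 237 CPM in knockout libraries, and *Cd80* had 11.4 to 13.7 CPM in WT and 46.3, 50.4 and 45.2 CPM in knockout libraries. Both were thus higher in each knockout library, with log2 fold changes of 2.60 and 1.97 without knockout replicate 3. *Il6* had 0.19 to 0.48 CPM in WT and 1.48, 1.76 and 28.7 CPM in knockout libraries, and a fit of the other 5 libraries gave 2.41 (SE 0.445, adjusted p = 0.00147).

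Several classical activation genes were read almost solely in knockout replicate 3. *Acod1*, which makes itaconate, had 370 counts there and 0 in the other 5 libraries, and *Il1b* had 81 and 0. *Nos2* had 239 counts there, 1 in knockout replicate 2 and 0 in the other 4, and *Il1a* had 49 counts there and 3 in the other 5 together. *Tnf* had 3.00 CPM in that library and at most 0.24 CPM in any other. Among all genes counted, 14 had at most 5 counts over the other 5 libraries and at least 30 in knockout replicate 3. Besides *Marco*, *Acod1*, *Il1a*, *Il1b* and *Nos2* these included *Csf3*, *Lcn2* (2874 counts), *Gbp5*, *Tnfrsf9*, *Fbp1* and *Gal3st2*, and 3 were loci without a gene name. These genes were chosen after their values were seen, and one library gives them no test.

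**Figure D5:**
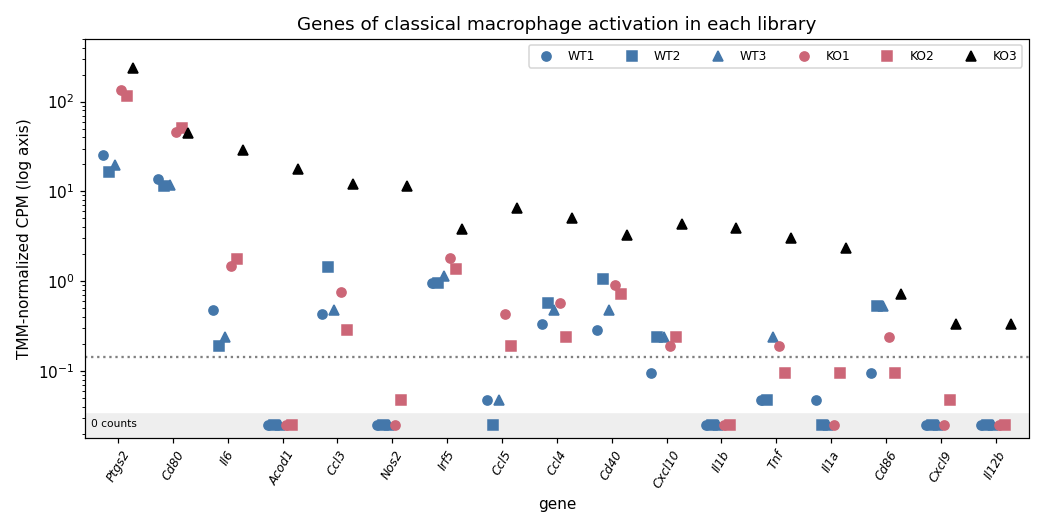
TMM-normalized CPM (vertical axis, log scale, with 0 counts drawn in the grey band) of the 17 classical activation genes in WT (blue) and knockout (red, replicate 3 in black) libraries. The dotted line is the CPM of 3 counts. *Acod1*, *Il1b* and *Il12b* have 0 counts in all libraries but knockout replicate 3, and *Ptgs2* and *Cd80* are above WT in all 3 knockout libraries.

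Of 16 genes of alternative activation 10 were in the table and 3 were tested. Of the 3, 1 was lower and 0 higher, beside 16.6% and 16.4% of all genes. Knockout replicate 3 was the highest library for 0 of the 3, beside 33.1% of all genes. With 3 genes tested, these counts cannot be told from the shares of all genes. The gene called, *Tgm2*, is a transglutaminase that fibroblasts also express (log2 fold change -0.30, SE 0.0930, adjusted p = 0.0492 from edgeR). *Arg1* had 0.47 to 0.95 CPM over the 6 libraries, and *Cd163* at most 1 count in any library. *Il10* had 6 counts and *Lyve1* 2 counts in knockout replicate 3 and 0 in the other 5 libraries. The lipid and phagocytic list had 4 genes higher and 2 lower of 12 tested, beside 16.4% and 16.6% of all genes. Without knockout replicate 3 it had 4 higher and 3 lower, beside 23.9% and 24.2% of all genes. *Spp1*, *Lgals3*, *Plin2* and *Cd9* rose (log2 fold changes 1.15, 0.69, 0.90 and 0.43) and *Lpl* and *Apoe* fell (-1.20 and -0.96). These are genes of fibroblasts as well as of macrophages.

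The lysosome list, which *Cd68*, *Laptm5* and *Ctss* resemble by the place of their products, went higher in knockout cells in 16 of 33 genes tested and lower in 2, against 16.4% and 16.6% of all genes. The list summed to 5230 to 9540 CPM over the libraries, against 69.8 to 277.5 CPM for the macrophage members. Which cells the RNA of the lysosome genes came from was not tested. *Ctsh*, *Ctsd*, *Lamp1* and *Tfeb* changed most among those called (log2 fold changes 1.05, 1.03, 1.0 and -0.94, adjusted p of 0.0372, 0.00620, 0.00565 and 0.0109 from edgeR). *Ctsd*, the protease cathepsin D, had 571 to 637 CPM in WT and 1045, 1095 and 1514 CPM in knockout libraries. *Cd68*, *Laptm5* and *Ctss* had negative log2 fold changes in the same fit, none of them called. Without knockout replicate 3, 21 of 33 lysosome genes were higher and 5 lower, beside 23.9% and 24.2% of all genes.

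Among ligands and attractants of monocytes and macrophages 2 of 6 tested genes were higher in knockout cells and 0 lower, beside 16.4% and 16.6% of all genes. *Cx3cl1* had 9.54 to 10.2 CPM in WT and 18.6, 19.6 and 22.8 CPM in knockout libraries (log2 fold change 1.04, SE 0.113, adjusted p = 0.00328 from edgeR). *Ccl2*, the main monocyte chemoattractant, had 20.4 to 23.0 CPM in WT and 50.0, 40.3 and 551.6 CPM in knockout libraries (log2 fold change 3.31, SE 1.04, adjusted p = 0.0497), and 1.06 without knockout replicate 3 (SE 0.102, adjusted p = 2.49e-05). *Csf1*, the ligand of CSF1R, had 60.3 to 63.9 CPM in WT and 100.7, 95.7 and 357.7 CPM in knockout libraries. Its log2 fold change was 1.58 (SE 0.514, adjusted p = 0.0545 from edgeR), and 0.67 without knockout replicate 3 (SE 0.0597, adjusted p = 1.60e-05), a fit in which 4 of the 6 genes and 23.9% of all genes were higher. Thus the ligand was higher in each knockout library, whereas its receptor *Csf1r* was not.

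Markers of other cell types were read beside the macrophage genes. The counts of genes called in these lists stand beside 16.6% lower and 16.4% higher among all genes tested. Of 10 neutrophil genes 6 were in the table and 0 passed the filter. Their sum was 0 to 0.67 CPM in 5 libraries and 4.10 CPM in knockout replicate 3, mostly *Ltf* (2.29 CPM) and *Camp*, with *Ly6g* at 1 count there. Dendritic cell genes summed to 8.03 to 11.05 CPM, of which *Zbtb46* gave 5.33 to 7.69 CPM, and *Cd74* was the 1 of 2 tested genes that rose (log2 fold change 2.12, adjusted p = 0.0495 from edgeR). In T and NK cell genes (0 of 1 tested called, sum 0.71 to 1.28 CPM) *Lck* gave most, *Cd3g* had at most 0.24 CPM and *Cd3e* was at 0 in 5 libraries. In the B cell list *Ebf1* fell (1 of 2 tested, log2 fold change -0.75), *Pax5* had 10 to 15 counts in 5 libraries and 2 in knockout replicate 3, and *Cd79a* was at most 0.28 CPM. Mast cell genes had 0 of 1 called, with *Gata2* at 12.2 to 20.95 CPM, *Kit* at most 0.95 CPM and *Cpa3* at most 0.048 CPM.

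Of the osteoclast list 0 of 4 tested genes were called, with *Nfatc1* at 17.9 to 24.9 CPM, *Tnfrsf11a* at 2.90 to 10.8 CPM and *Acp5* at 0.86 to 2.14 CPM. In the microglia list 3 of 4 were lower, beside 16.6% of all genes. They were *Olfml3*, *Sall1* and *Tmem119* (log2 fold changes -1.85, -1.80 and -0.88), which mesenchymal cells also express, and *P2ry12* had at most 0.62 CPM. Erythroid and megakaryocyte genes had 1 lower of 5 (*Gp1bb*, -0.53) and endothelial genes 1 lower of 5 (*Plvap*, -2.38), beside 16.6% of all genes. *Tek*, at 30.8 to 64.5 CPM, and *Eng*, at 36.0 to 53.3 CPM, were the most abundant endothelial genes and were not called. Their log2 fold changes were -0.095 and 0.27, and *Cdh5* had at most 0.24 CPM. Fibroblast genes had 2 lower and 1 higher of 18 (*Pdgfra*, -1.22, *Thy1*, -1.11, and *Sparc*, 0.70), beside 16.6% and 16.4% of all genes. Without knockout replicate 3 they had 4 lower and 5 higher, beside 24.2% and 23.9% of all genes. In that fit the osteoclast and mast cell lists each had 1 gene higher, of 4 and 2 tested (*Nfatc1* and *Gata2*), and the endothelial list 2 lower of 5. In knockout replicate 3 the fibroblast list summed to 30433 CPM, against 38095 to 52159 CPM in the other 5 libraries. The part of these cell types and of the cultures' make-up in the values of the macrophage genes was not tested.

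The genes whose course over the 6 libraries was nearest to that of the members were found from log2 CPM centred per gene. The median course of the 9 tested members was -0.62, 0.16 and -0.012 in WT and -0.12, -0.57 and 0.86 in knockout libraries. The nearest gene outside the members was *Ncf1*, a subunit of the phagocyte NADPH oxidase, with a root mean square difference of 0.077. It had 1.57, 2.75 and 2.61 CPM in WT and 2.15, 1.71 and 4.81 CPM in knockout libraries. *Arhgap30* (0.089), the complement receptor gene *C3ar1* (0.145), *Cd300c2* (0.145), *Gda* (0.147), *Pcbd1* (0.164), *Cpa6* (0.169) and *Bcl2a1b* (0.169), a member of a family of near-identical genes, followed. Among the members themselves *Csf1r* was nearest to the median course (0.151) and *Adgre1* farthest (0.876).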

How the data were processed

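RNA of 3 WT and 3 *Rnf20* knockout cultures was sequenced. The authors prepared stranded mRNA libraries, aligned the read pairs with HISAT2 2.1.0 (GRCm38/mm10) and deposited raw counts per gene with gene lengths. The counting program is not given in the sources used here. The authors deposited FPKM values from Cufflinks 2.1.1 for 12633 genes, used here for the study's threshold and for one order of levels. Beside them stand a second copy of the counts, equal for all 12633 genes, and a log2 fold change and adjusted p-value of the authors' own comparison, of which no value was used.

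The counts were analysed with edgeR 4.0.16 in R 4.3.3, with TMM factors, filterByExpr (13386 genes kept) and the quasi-likelihood test without covariates, adjusted by Benjamini-Hochberg over all tested genes. SE is the absolute log2 fold change over the square root of F. Centred log2 CPM uses a pseudocount of 2 counts. The test, checked on simulated counts of 13273 genes for this comparison, recovered 73.7% of 99 genes changed by 1 and 96.9% of 98 changed by 2 on the log2 scale, with 7 unchanged genes called. In the simulation the libraries of a genotype shared a mean, and none stood apart as knockout replicate 3 does. These shares therefore do not hold for members that differed strongly between the knockout libraries. Alternatives were RLE factors, library size, the edgeR exact test, DESeq2 1.42.0, 2 other filters, the replicate number as a block, and each library left out. Members and gene lists were chosen with earlier results of these data known. Named genes are *Rnf20*, the members, *Ptprc*, *Spi1*, *Itgam* and *Itgb2*, up to 4 called genes of each list by size of change or else the 2 most abundant, and the 8 genes nearest in course; other genes are named where a count rests on them or as seen in the values. The values of 1 gene of the wider list are not reported here.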

Additional observations from a re-analysis of the deposited data

How the results depend on the processing

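The log2 fold changes of *Lyz2*, *Csf1r*, *Tyrobp* and *Fcer1g* changed sign in fits that left out a library, with ranges of -0.20 to 1.26, -0.078 to 0.49, -0.56 to 0.36 and -0.37 to 1.57, the lowest each without knockout replicate 3. *Tyrobp* was also negative without WT replicate 1, with library sizes only (-0.037) and with the replicate block (-0.041). Members lower in knockout cells numbered 0 to 1 when single libraries were left out and 1 with library sizes only, which moved the median of all genes to -0.060, and in both cases the gene was *Laptm5*. Members higher numbered 0 in each alternative run. In the wider myeloid list 2 genes were higher, against 6 with DESeq2, 7 with edgeR's exact test and 1 to 4 with a library left out. Of all genes 19.5%, 16.4% and 5.11% to 23.9% were higher in these runs. With a library left out 1 to 2 of the list were lower, beside 5.17% to 24.2% of all genes. By the study's thresholds 1 was higher, and 3.59% of all genes were called in either direction. At an adjusted p under 0.01, 1 was higher, and the share of all genes was not counted. *Tlr4* lost its call without WT replicate 2 or 3. The cause was not tested. The rank by FPKM was the same for 5 of 9 members, and the rank without knockout replicate 3, an alternative chosen after seeing the data, for 2 of 9. The deviations of same-numbered samples from their genotype means had correlations of -0.066, 0.037 and 0.011. With 3 libraries per genotype and knockout replicate 3 standing apart, these values cannot tell whether replicate numbers pair the samples. The replicate block gave 0 members lower and 0 higher, with 2875 genes called in all against 4413. *Tyrobp* had 28 to 98 counts in the knockout libraries and *Aif1* under 10 counts outside knockout replicate 3.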
